A study of Mus musculus with 2 samples.

Results

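Plasmacytoid dendritic cells (pDCs) made up 113 of the 5022 tumor-infiltrating immune cells in the deposited table, 45 of 2392 in the library labelled *Maoa* WT and 68 of 2630 in the library labelled *Maoa* KO. They were chosen by measured UMIs (unique molecular identifiers, each of which counts 1 RNA molecule): at least 3 of *Siglech*, at least 2 over *Ccr9*, *Cox6a2* and *Ly6d*, and at most 2 over the T cell receptor genes *Cd3d*, *Cd3e* and *Cd3g*. The pDC is a dendritic cell of lymphoid shape with a large secretory apparatus. It detects viral and self nucleic acid in endosomes through the Toll-like receptors TLR7 and TLR9 and can answer with large amounts of type I interferon, while its capacity to present antigen is lower than that of conventional dendritic cells. The transcription factor TCF4 (also called E2-2), which binds E-box motifs, maintains the lineage against the antagonist ID2. In tumors, pDCs are often found in a state of low interferon output and have been linked to both suppressive and stimulatory effects on T cells.

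Both groups were mice challenged with B16-OVA, a mouse melanoma line that carries ovalbumin as a model antigen, and the tumors were collected at day 14. The *Maoa* KO mice carried a hypomorphic mutation of *Maoa*, the X-linked gene of the enzyme that breaks down serotonin and other monoamines, in all cells and on a background crossed back to C57BL/6J, and the *Maoa* WT mice were their wild-type comparison. The methods give an age of 8 to 12 weeks. For each genotype 10 tumors were combined, live CD45.2+ leukocytes were sorted and 1 library was made, so neither genotype has a replicate and no test between them was possible. Levels below are CPM, the UMIs of a gene for each 1000000 UMIs of the same cells, and all intervals are exact intervals at 95% that cover counting error only.

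The pDCs held 350279 UMIs in the WT-labelled library (median 7318 per cell, 4619 to 15966) and 479655 in the KO-labelled library (median 6945.5, 5030 to 11910). Depth per pDC was thus close in the 2 libraries, whereas T cells (at least 5 UMIs of the *Cd3* genes and at most 2 of *C1qa*, *C1qb* and *C1qc*) had medians of 9519 and 5104.5 UMIs. *Maoa* itself was at 0 UMIs in the pDCs of both libraries and at 7 UMIs in the whole library labelled WT against 15 in the KO-labelled library. It was thus not lower under the KO label, and a hypomorphic mutation need not remove the counted 3' end, so its UMIs do not check the labels here and each direction given here is that of the labels. *Xist* was at 0 in pDCs, and at least 1 of 4 Y-linked genes was detected in 32 of 45 and 47 of 68 pDCs, although the methods state female mice unless otherwise indicated. Barcode sequences shared by both libraries numbered 13, and 1 pDC, of the WT-labelled library, carried one of them.

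The 113 members had 3 to 26 UMIs of *Siglech* with a median of 14 in each library, and 43 and 64 of them had more than 5. No cell with exactly 2 UMIs of *Siglech* met the remaining conditions in either library, and 3 and 1 cells with 1 UMI did. The limit on *Cd3* genes alone kept out 3 cells in each library. Of these, 3 had 3 or 4 *Cd3* UMIs beside 18 to 25 UMIs of *Siglech*, and the others had 6 to 30 *Cd3* UMIs. *Ccr9* was detected in 44 of 45 and 66 of 68 members, *Cox6a2* in 43 and 61, and *Ly6d* in 43 and 66. *Mzb1*, a chaperone gene of antibody-secreting and plasmacytoid cells that the rule did not use, was detected in 29 and 50 members at 343 CPM (interval 284 to 409.6) and 302 CPM (255 to 356).

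Markers of other cell types were low but not absent. *Xcr1* and *Batf3* of cDC1, *Zbtb46* of conventional dendritic cells, *Fscn1* of mature dendritic cells, *Mrc1* of macrophages, *Pax5* of B cells and *Eomes* of NK cells were all at 0 UMIs in pDCs. Other markers on these lists were present: the 8 macrophage markers summed to 745 and 719 CPM, with a UMI in 43 of 45 and 68 of 68 pDCs and most of them from *Cd68*, and the 5 markers of Cd209a+ dendritic cells to 243 and 271 CPM, with *Cd33* 2-fold higher in pDCs than in other cells. The 6 T cell markers in the table, 3 of them limited by the rule, summed to 103 and 108 CPM in pDCs, against 3828 and 3678 CPM in T cells. The 6 monocyte markers summed to 1196 and 882 CPM, most of it *Lyz2*, a lysozyme gene of myeloid cells. A few members held most of these UMIs: 1 cell of the WT-labelled library had 285 UMIs of *Lyz2* and 1 of the KO-labelled library had 205, where the medians were 1 and 1. A further cell labelled WT had 206 UMIs of *Spp1* and 78 of *Ccl4*, and another had 125 of *Ccl5*, 114 of *Gzma* and 39 of *Gzmb*. Together with a KO-labelled cell with 28 UMIs of *Lyz2*, these 5 mixed members (3 and 2 per library, at least 20 UMIs of 1 of 5 such genes, a limit set after their values were seen) had medians of 13405 and 11890 UMIs per cell against 7281.5 and 6940.5 in the rest. All 5 also had 7 to 21 UMIs of *Siglech*. Whether they are doublets was not tested. Without them the monocyte markers summed to 245 and 382 CPM.

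The genes most concentrated in pDCs were few and held most of their UMIs in these 113 cells. A minimum of UMIs in pDCs (100 here, 20 for the lists below) drops genes low in pDCs, which limits the number of lower calls. Of 1117 genes with at least 100 UMIs in pDCs, 20.6% were at least 2-fold higher there than in all other cells of both libraries and 3.94% at least 2-fold lower. Ranked by the lower of the 2 libraries' log2 ratios, the first 20 were *Pgam2*, *D13Ertd608e*, *Siglech*, *Klk1*, *Cox6a2*, *Ccr9*, *Dntt*, *Paqr5*, *Cdh5*, *Sh3bgr*, *Atp2a1*, *Ly6d*, *Klk1b27*, *Ccdc162*, *Upb1*, *Cd300c*, *Pir*, *Fcrla*, *Smim5* and *Spns3*. Of all UMIs of these genes in the series, pDCs held from 60.5% (*Spns3*) to 97.4% (*Pgam2*). *Siglech*, *Ccr9*, *Cox6a2* and *Ly6d* are in this list by the rule; the other 16 follow from choosing the same cells, and their ratios are a description. The table of RefSeq promoters on GRCm38.p6 used here holds 12 of the 20. The 250 bases before the listed start are printed for 4 of them. These are the lectin gene and the chemokine receptor of the rule, and a muscle-type gene and a kallikrein gene described next. E-box letters (CANNTG, read on both strands, which are the same for this motif) are the letters that TCF4 is known to bind. They occur in each of the 4, but also in 11 of the 12, so they do not set these 4 apart. The matches are in capitals, and each sequence is on the strand of its gene.

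*Siglech*, chr7:55767934-55768183 on the plus strand: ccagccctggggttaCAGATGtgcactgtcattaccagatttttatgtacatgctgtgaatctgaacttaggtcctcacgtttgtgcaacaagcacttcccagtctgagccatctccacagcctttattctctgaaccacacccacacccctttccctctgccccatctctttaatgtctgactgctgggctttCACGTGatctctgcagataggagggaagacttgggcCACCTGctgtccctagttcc

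*Ccr9*, chr9:123766961-123767210 on the plus strand: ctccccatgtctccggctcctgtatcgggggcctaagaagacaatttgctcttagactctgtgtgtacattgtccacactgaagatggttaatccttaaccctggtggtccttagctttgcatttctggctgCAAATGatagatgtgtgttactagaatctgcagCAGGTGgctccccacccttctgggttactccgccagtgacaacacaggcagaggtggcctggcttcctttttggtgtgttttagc

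*Pgam2*, chr11:5803797-5804046 on the minus strand: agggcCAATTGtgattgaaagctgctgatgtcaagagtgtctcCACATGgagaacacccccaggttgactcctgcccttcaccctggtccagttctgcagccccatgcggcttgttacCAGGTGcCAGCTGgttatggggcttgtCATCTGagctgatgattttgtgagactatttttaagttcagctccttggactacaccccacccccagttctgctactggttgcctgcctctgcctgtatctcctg

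*Klk1*, chr7:44225110-44225359 on the plus strand: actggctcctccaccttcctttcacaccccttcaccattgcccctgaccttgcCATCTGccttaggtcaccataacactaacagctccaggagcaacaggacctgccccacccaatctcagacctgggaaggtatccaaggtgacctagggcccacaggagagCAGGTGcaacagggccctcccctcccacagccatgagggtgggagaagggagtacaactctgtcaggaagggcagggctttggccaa

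CANNTG occurred in 11 of the 12 promoters, and in 66.0% of all 27025 promoters of the table over the same length. The narrower form CAGGTG, read on either strand, occurred in 7 of the 12 and in 17.1% of all. Each of the 4 sequences above holds it, whereas *Atp2a1* and *Klk1b27*, the other muscle-type and kallikrein genes of the 12, do not. The 4 printed thus do not stand for the 12. CAGCTG, another form of the E-box, occurred in 2 of the 12 and in 12.8% of all. The MEF2 motif, read as CTA, any 4 bases and TAG, occurred in none of the 12 and in 3.23% of all. These are letter matches in a fixed window, and binding was not measured.

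*Siglech*, an inhibitory lectin of mouse pDCs, was at 1893 and 1885 CPM in pDCs of the WT- and KO-labelled libraries, and *Ly6d*, a surface protein of early lymphoid cells, at 3292 and 3363 CPM. *Ccr9*, the receptor for the gut and thymus chemokine CCL25, was at 1002 and 1215 CPM. Per cell, *Ly6d* ran from 0 to 80 UMIs (median 22) and from 0 to 79 (median 19), so the genes of the rule themselves spread widely among members, and the libraries overlapped. Among the genes that the rule did not use, *Klk1*, the tissue kallikrein that releases kinins, was at 831 and 603 CPM but uneven, with UMIs in 33 of 45 and 45 of 68 cells and up to 39 and 27 UMIs in 1 cell. Its neighbour in the family, *Klk1b27*, was at 259.8 and 234 CPM. The kallikrein genes are near-identical copies, so how reads were divided between them is uncertain. *Dntt*, which adds bases at the junctions of antigen receptor genes, was at 143 and 125 CPM, in 27 and 29 cells. *Cdh5*, the cadherin of endothelial junctions, was at 171 and 110.5 CPM, *Upb1*, an enzyme of pyrimidine breakdown, at 263 and 284 CPM, and *Paqr5*, a membrane progestin receptor gene, at 188 and 200.1 CPM.

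**Figure D1:**
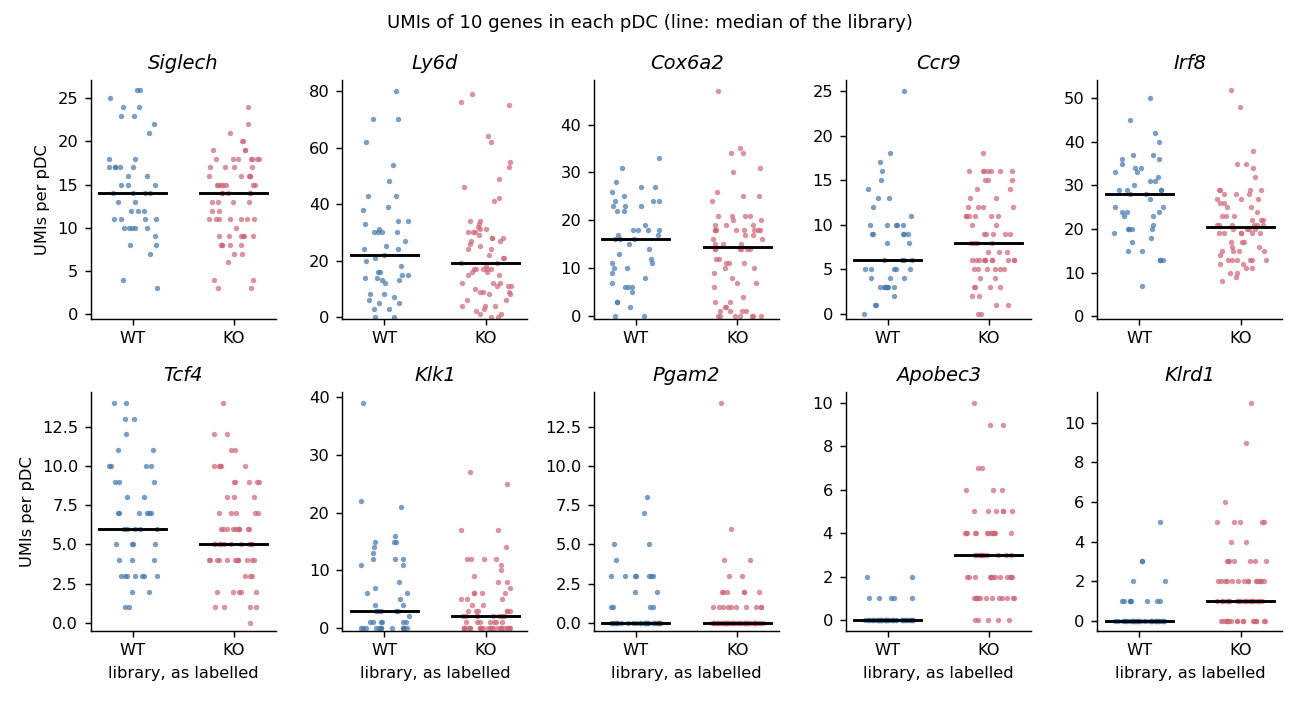
UMIs per pDC (y axis, each panel with its own linear scale) of 10 genes in the libraries labelled WT (45 cells) and KO (68 cells), with each point 1 cell and the line the median of the library. *Siglech* has a median of 14 in both libraries, whereas *Apobec3* has medians of 0 and 3.

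Of the 20 leading genes, 4 are known from muscle and have relatives that serve many tissues. *Cox6a2* encodes the heart and muscle form of a subunit of cytochrome c oxidase, *Pgam2* the muscle form of a glycolytic mutase, *Atp2a1* the calcium pump of fast skeletal muscle, and *Sh3bgr* a small protein of heart and muscle. This group was picked after the leading genes were seen and was not tested for enrichment, and *Cox6a2* is a gene of the rule, so its share in pDCs is a description of the cells chosen; the other 3 were not used by the rule. *Cox6a2* made up 78.8% (76.0 to 81.4%) of the summed UMIs of *Cox6a1* and *Cox6a2* in WT-labelled pDCs and 78.3% (75.9 to 80.6%) in KO-labelled pDCs. In T cells the share was 0.278 and 0.778%, and in Cd209a+ dendritic cells (at least 3 UMIs of *Cd209a*) 0.366 and 0.446%. *Cox6a1* in pDCs was close to its level in all other cells, at log2 ratios of −0.09 and −0.04. None of the other nuclear-encoded subunits among the 15 cytochrome c oxidase genes with at least 20 UMIs was 2-fold higher in pDCs in both libraries. The mitochondrial *mt-Co1* was, at 1.17 and 1.13; the median mitochondrial share of UMIs was 2.79 and 3.02% in pDCs and 1.43 and 1.59% in the other cells.

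*Pgam2* made up 45.3% (36.5 to 54.3%) and 38.1% (30.2 to 46.5%) of the UMIs of *Pgam1* and *Pgam2* in pDCs. Outside pDCs it had 3 UMIs in the WT-labelled library and 0 in the KO-labelled library, against 16210 and 9735 UMIs of *Pgam1*. It was also patchy, with UMIs in 18 and 22 pDCs and at most 8 and 14 in 1 cell. *Atp2a1* made up 65.0% (51.6 to 76.9%) and 83.8% (75.8 to 89.9%) of the UMIs of the 3 *Atp2a* pump genes. *Sh3bgr* made up 29.1% (23.96 to 34.7%) and 11.3% (9.11 to 13.9%) of the UMIs of its family of 4 genes, in which *Sh3bgrl3* had more UMIs in pDCs (187 and 617, against 85 and 82 of *Sh3bgr*). *Sh3bgr* had 8 and 12 UMIs in all other cells. Of other muscle genes, *Ckm*, *Des* and *Myl1* were at 0 UMIs in pDCs, and *Actn2* and *Tnnt3* at 1 UMI each, both in the KO-labelled library.

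**Figure D2:**
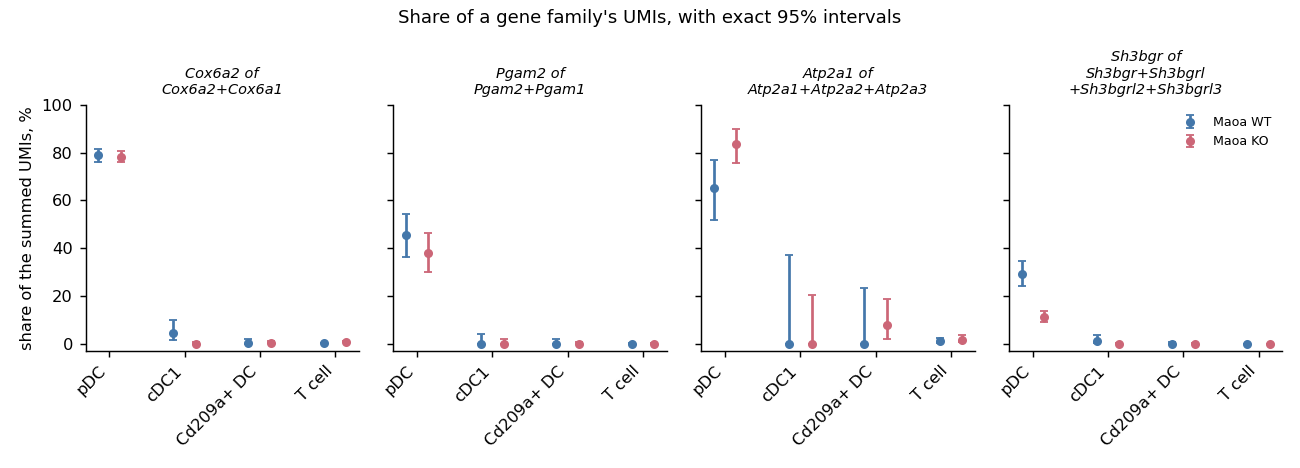
Share of the muscle-type gene in the summed UMIs of its gene family (y axis, %), by cell class and library, with exact 95% intervals that cover counting error only. *Cox6a2*, a gene of the rule, is at 78.8 and 78.3% in pDCs, and *Pgam2*, which the rule did not use, at 45.3 and 38.1%; *Sh3bgr*, at 29.1 and 11.3%, is the minor part of its family. The intervals for *Atp2a1* in cDC1 are wide because the 3 pump genes had only 8 and 16 UMIs there.

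Regulators of the pDC lineage, which the rule did not use, were mostly higher in pDCs. This list and those below were chosen with earlier results of these data known, so their counts are descriptions. Of 10 regulators, 6 were at least 2-fold higher in pDCs than in all other cells of both libraries (*Tcf4*, *Spib*, *Bcl11a*, *Irf8*, *Mef2c* and *Runx2*) and none was 2-fold lower, where 15.1% of 4332 genes (all with 20 or more UMIs in pDCs) were higher and 4.02% lower. *Tcf4* was at 862 and 824 CPM, against 88.8 and 58.8 CPM in Cd209a+ dendritic cells. *Irf8*, a factor that pDCs share with cDC1, was at 3466 and 3031 CPM in pDCs, 2335 and 2051 CPM in cDC1 (at least 3 UMIs over *Xcr1* and *Clec9a*, 11 and 39 cells, with the same limit on *Cd3* genes as all dendritic cell gates) and 312 and 170.1 CPM in Cd209a+ dendritic cells. *Irf8* was thus high in every pDC, from 7 to 50 UMIs in the WT-labelled library and from 8 to 52 in the KO-labelled library. *Spib*, an ETS factor of pDCs and B cells, was at 199.8 and 192 CPM, against 5.32 and 1.49 CPM in cDC1 and 2.17 and 9.59 CPM in Cd209a+ dendritic cells. *Zeb2*, a repressor that the lineage needs, was close to other cells, at log2 ratios of −0.45 and 0.39. *Id2*, the antagonist of TCF4, had 46 and 7 UMIs in pDCs, of which 25 lay in the WT-labelled cell with *Spp1*, and its level of 131 and 14.6 CPM (45.2 and 13.2 without the mixed members) stood against 1612 and 1308 CPM in cDC1.

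A list of 18 further genes known from pDCs was 2-fold higher in pDCs in all 18 cases (15.1% of all genes), with log2 ratios from 1.52 (*Clec12a*, KO-labelled library) to 8.47 (*Cd300c*, WT-labelled library). Because this list too was chosen with earlier results known, the count describes the cells and does not check what they are. *Bst2*, the surface antigen PDCA-1 that tethers virions, was at 3908 and 3578 CPM, from 14 to 52 and 12 to 44 UMIs per cell. *Lair1*, an inhibitory collagen receptor, was in every pDC at 742 and 740.1 CPM, with 12.3 and 7.88 CPM in T cells. *Klra17*, the Ly49Q receptor of pDCs, was at 254 and 148 CPM, a value that depends on how reads were divided among the similar Ly49 genes. *Rnase6*, a secreted ribonuclease, was at 1356 and 1105 CPM, and *Lag3*, an inhibitory receptor also of exhausted T cells, at 537 and 509 CPM, in 43 of 45 and 56 of 68 pDCs. *Cd209d*, a lectin gene, was uneven, with UMIs in 24 and 23 pDCs and up to 26 in 1 cell. *Plac8*, the most abundant of the 18, was at 5569.9 and 5831 CPM and also at 2191 and 1234 CPM in Cd209a+ dendritic cells.

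**Figure D3:**
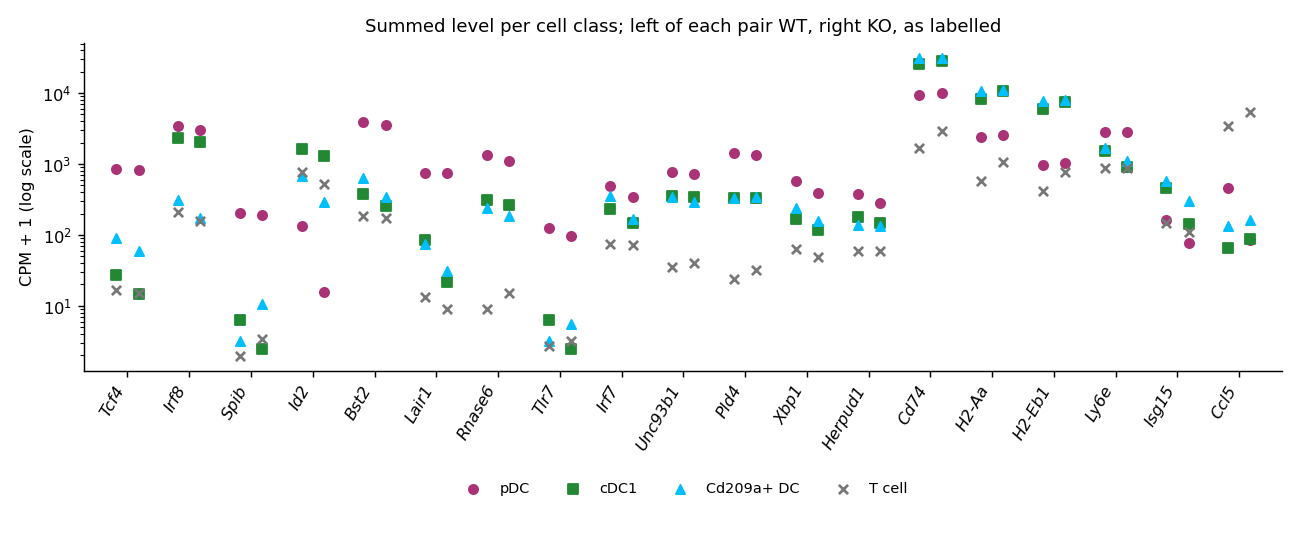
Summed level of 19 genes (CPM plus 1, log scale) in pDCs, cDC1, Cd209a+ dendritic cells and T cells, with the WT-labelled library on the left and the KO-labelled library on the right of each pair. *Tcf4*, *Spib* and *Tlr7* stand above the other classes in pDCs, whereas *Id2* and the class II genes *Cd74*, *H2-Aa* and *H2-Eb1* stand below cDC1.

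Genes of endosomal nucleic acid sensing were detected in pDCs, with *Tlr7* well above other cells and *Tlr9* under the limit that 3 counts set. Of 21 genes of this pathway, 16 had at least 20 UMIs in pDCs, and 7 of these were 2-fold higher than in other cells in both libraries and 2 lower (15.1% and 4.02% of all genes). *Tlr7*, the receptor for single-stranded RNA, had 43 and 46 UMIs (123 and 95.9 CPM), against 1.70 and 2.17 CPM in T cells and 2.17 and 4.48 CPM in Cd209a+ dendritic cells. *Tlr9*, the receptor for CpG DNA, had 1 and 0 UMIs, under that limit. *Unc93b1*, which carries these receptors to the endosome, was at 782 and 723 CPM, and *Pld4*, an exonuclease that trims their ligands, at 1436 and 1347 CPM. *Slc15a4* and *5430427O19Rik*, a transporter and its adaptor in TLR7 signalling, were higher too, at log2 ratios of 1.45 and 1.77 and of 2.07 and 2.26. *Irf7*, the master factor of interferon induction, was at 485 and 346 CPM in pDCs and at 353 and 164 CPM in Cd209a+ dendritic cells. The lower genes were *Lgmn* and *Pld3*, a lysosomal protease and an exonuclease.

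No type I interferon was detected in pDCs. *Ifnb1*, *Ifna2*, *Ifnab*, *Ifnk* and *Ifnz* were at 0 UMIs in all 113 cells, where 3 counts would give 8.56 and 6.25 CPM for each gene in the WT- and KO-labelled libraries, while *Ifnb1* had 40 UMIs in other cells of the series. *Ifnl2* had 0 and 1 UMIs. The table held 7 of the 21 interferon genes looked for, so other members of the *Ifna* family have no values here. Whether those were undetected or left out for another reason was not tested. The *Ifna* genes are also near-identical copies. Of 17 interferon-stimulated genes with at least 20 UMIs, *Bst2*, *Irf7* and *Ly6e* were 2-fold higher in pDCs and *Isg15*, *Zbp1*, *Ifi204* and *Xaf1* 2-fold lower (15.1% and 4.02% of all genes), and the medians of the 17 log2 ratios were −0.35 and −0.30, against 0.22 and 0.24 over all 4332 genes. Summed over the 37 genes of the list in the table, they were at 9869 and 8902 CPM in pDCs and at 8216 and 4993 CPM in Cd209a+ dendritic cells, with *Bst2* and *Ly6e* the bulk of the sum in pDCs. *Isg15*, a ubiquitin-like protein induced by interferon, was at 163 and 77.1 CPM in pDCs and at 580.3 and 298 CPM in Cd209a+ dendritic cells. Of 8 receptor and signalling genes, the type I receptor genes *Ifnar1* and *Ifnar2* and the factor *Stat2* were higher in pDCs, and *Ifngr1*, a chain of the type II receptor, was lower, at −2.10 and −2.63, as was the kinase gene *Jak1*, at −1.29 and −1.07, again against 15.1% and 4.02% of all genes.

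Cytokine and chemokine genes were mostly low. *Il12a*, the p35 chain of IL-12 and IL-35, was the only one of 4 cytokine genes with at least 20 UMIs that was 2-fold higher than in other cells, while *Il1b* and the lymphotoxin gene *Ltb* were lower (15.1% and 4.02% of all genes), and pDCs held 26 of the 47 UMIs of *Il12a* in the series, in 9 and 13 cells. The partner chain *Il12b* was at 0 UMIs in pDCs, as were *Il6* and *Il10*. None of 8 chemokine genes was 2-fold higher, and 7 were lower, or 8 without the mixed members, where 15.1% of all genes were higher and 4.02% lower. Of 7 measured genes linked to suppressive or cytotoxic pDCs, 1 (*Lag3*) was 2-fold higher, a share near that of all genes, and 2 were lower, of which *Gzmb*, a granule protease, lay mostly in 1 cell, with 39 of 45 UMIs of the WT-labelled library.

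Genes of the secretory pathway and the unfolded protein response were in part higher in pDCs. Of 31 such genes with at least 20 UMIs, 11 were 2-fold higher in pDCs in both libraries and none lower, where 15.1% of all genes were higher and 4.02% lower. These included *Xbp1*, the factor that expands the endoplasmic reticulum, at 571 and 392 CPM, *Herpud1* and *Edem2*, which serve the disposal of misfolded proteins, at 371 and 279 CPM and at 214 and 198 CPM, and *Tram1*, a part of the translocation channel. The abundant chaperone *Hspa5* was not among them, at log2 ratios of 0.61 and 0.26. Of 7 lymphoid genes with at least 20 UMIs, 5 were higher: *Dntt*, the B cell adaptor *Blnk* (171 and 211 CPM), *Cd79b*, *Cd4* (203 and 139.7 CPM, in 31 and 32 cells) and *Il7r*. *Cd8b1* was at 471 and 489.9 CPM and *Cd8a* at 106 and 110.5 CPM, with few *Cd3* UMIs by the rule. Among homing receptors other than *Ccr9*, *Selplg* (the ligand of P-selectin) was higher, at log2 ratios of 1.62 and 1.38, and *Ccr2*, a receptor of monocytes, was lower. *Flt3*, the receptor that drives dendritic cell growth, was at 94.2 and 108 CPM, between Cd209a+ dendritic cells (73.6 and 42.2) and cDC1 (149 and 158).

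Genes of the MHC class II pathway, which presents antigen to CD4 T cells, were lower in pDCs than in the other dendritic cells. The 10 class II genes summed to 16404 and 17275 CPM in pDCs, to 54509 and 63184 CPM in cDC1 and to 67162 and 67971 CPM in Cd209a+ dendritic cells. Of 8 class II genes with at least 20 UMIs, only *H2-Oa*, which restrains peptide loading, was 2-fold higher than in all other cells, at 2.77 and 1.32. The costimulatory ligands *Cd80* and *Cd86* had 2 and 6 UMIs in the WT-labelled library and 0 and 5 in the KO-labelled library. Class I presentation was close to that of other cells, with *Tapbp* alone of 9 genes 2-fold higher. Both counts are near the 15.1% of all genes that were higher.

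Class II genes also varied together among the pDCs. After each cell was thinned to 5600 UMIs (42 and 59 cells, with 3 and 9 shallower cells left out), *H2-Aa* ran from 0 to 33 UMIs with a median of 14.5 in the WT-labelled library, and from 0 to 45 with a median of 11 in the KO-labelled library. Its ratio of variance to mean was 7.43 and 9.90, where the median of 689 genes was 1.20 and 1.16 and counting alone gives 1. *H2-Aa* and *Cd74*, the invariant chain, ranked the cells alike (Spearman's rho 0.885 in 42 cells and 0.888 in 59 cells of 1 library each), and so did *H2-Aa* and *H2-Ab1* (0.860 and 0.871). *Ly6d*, as uneven with ratios of 11.6 and 13.3, had a low rho with *H2-Aa* (0.210 and 0.192) and with *Ly6c2* (0.0121 and 0.00319). The cells behind each rho share 1 library and 1 depth, and these pairs were 4 of 23 computed. *Slpi*, an inhibitor of secreted proteases, had ratios of 8.23 and 11.0, with medians of 2.5 and 3 UMIs and up to 31 and 37.

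**Figure D4:**
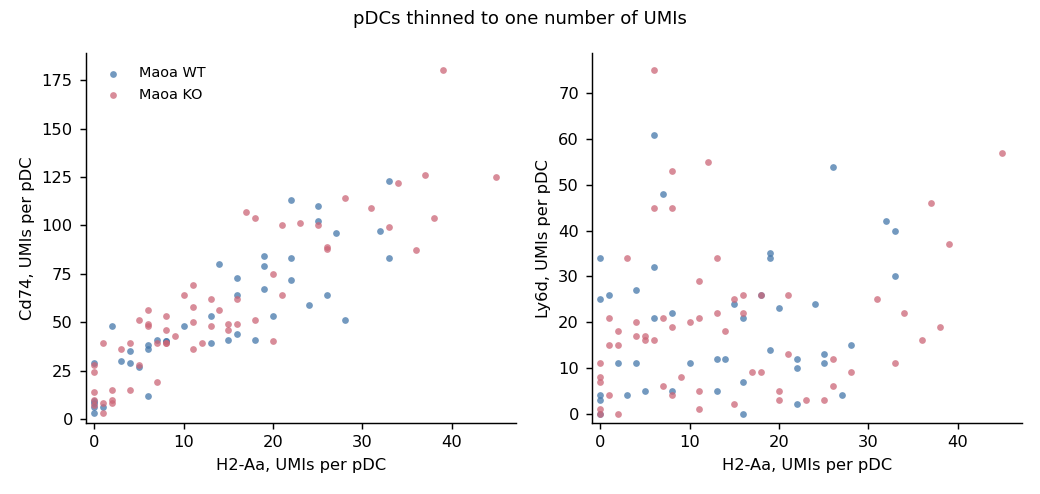
UMIs of *Cd74* (left) and *Ly6d* (right) against *H2-Aa* in pDCs thinned to 5600 UMIs, 42 cells of the WT-labelled library and 59 of the KO-labelled library, each point 1 cell. *Cd74* climbs with *H2-Aa* in both libraries (rho 0.885 and 0.888), and *Ly6d* is scattered against it (rho 0.210 and 0.192).

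No thinned pDC passed the limit of 3 UMIs for cycling. At least 3 UMIs over 10 mitotic genes such as *Mki67* and *Top2a* were found in 0 of 42 and 0 of 59 thinned pDCs, with exact upper limits of 8.41 and 6.06% (3 counts would be 7.14 and 5.08%), against 34.0 and 24.3% of T cells thinned alike. With a limit of 2 UMIs, 0 of 42 and 3 of 59 thinned pDCs passed (5.08%, 1.06 to 14.1%, for the KO-labelled library), against 43.2 and 30.2% of T cells. Without thinning, 0 of 45 and 2 of 68 pDCs passed the limit of 3.

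Comparing *Maoa* WT with *Maoa* KO mice asks how loss of the enzyme alters immune cells in the tumor. Of 16 genes of monoamine breakdown, transport and reception in the table, 10 were at 0 UMIs in pDCs of both libraries, among them *Maoa*, *Maob*, the serotonin transporter gene *Slc6a4* and the serotonin receptor genes *Htr1b*, *Htr2b* and *Htr7*. In this list 3 genes had at least 20 UMIs, and none of them was 2-fold higher or lower in the KO-labelled library (2.95% and 3.97% of all genes). pDCs were 1.88% (1.38 to 2.51%) of the cells in the WT-labelled library and 2.59% (2.01 to 3.27%) in the KO-labelled library, intervals that overlap. Among cells of the 3 dendritic cell gates together, pDCs were 48.4% (37.9 to 59.0%, 45 of 93) and 29.2% (23.4 to 35.5%, 68 of 233), where cDC1 and Cd209a+ dendritic cells numbered 11 and 37 in the WT-labelled library and 39 and 126 in the KO-labelled library. With 1 library per genotype, differences in sorting and loading cannot be told apart from genotype.

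Expression in pDCs was close in the 2 libraries. Of 1117 genes with at least 100 UMIs, 7 (0.627%) were at least 2-fold higher in the KO-labelled library and 13 (1.16%) at least 2-fold lower, and 89.2% had a log2 ratio within 0.5 of 0. The 13 lower genes became 8 without the 5 mixed members. They numbered 65 in a wider gate of cells chosen by 6 other marker genes. Members of the rule were 58.4 and 64.7% of that gate, and whether its other cells are pDCs was not tested. No member of the regulator list, of the 18 further pDC genes, of the sensing genes or of the 31 secretory genes with at least 20 UMIs passed 2-fold in either direction, where 2.95% of 4332 genes were higher and 3.97% lower. Other lists had some: *Isg15* and *Igtp* were lower among 17 interferon-stimulated genes, *H2-DMb2* higher among 8 class II genes, *Il1b* higher among 4 cytokine genes, and *Itgax* higher and *Cd9* lower among 5 genes of transitional and conventional dendritic cells. Of the 7 genes linked to suppressive or cytotoxic pDCs, 2 were lower, as were 1 of 2 regulators of conventional dendritic cells and 1 of 9 homing receptors. Without the mixed members *Isg15* was at 0.06, *Cd9* at 0.34 and *Gzmb* at −0.56. Markers of other cell types also differed between the libraries: the 6 neutrophil markers summed to 151 and 4.17 CPM in pDCs and to 246 and 15.2 CPM in T cells, with *S100a8* at 27 and 0 UMIs in pDCs, and the 6 B cell markers had 1 and 13 UMIs in pDCs. The 4 hemoglobin genes had 9 and 8 UMIs in pDCs, within counting error, and were at 656 and 14.7 CPM in T cells. Their part in other ratios was not tested. Of the genes of the rule, *Siglech* had a log2 ratio of KO to WT of −0.01 (−0.15 to 0.14), *Cox6a2* of −0.01 (−0.15 to 0.14), *Ly6d* of 0.03 (−0.08 to 0.14) and *Ccr9* of 0.28 (0.09 to 0.47). *Irf8* was slightly lower in the KO-labelled library, at −0.19 (−0.30 to −0.08).

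The largest ratio towards the KO-labelled library was that of *Apobec3*, a cytidine deaminase that restricts retroviruses (chromosome 15, 79891659 to 79915906 on GRCm38). It had 0 to 2 UMIs per pDC with a median of 0 in the WT-labelled library and 0 to 10 with a median of 3 in the KO-labelled library, so the ranges overlapped at 0 to 2 UMIs. In CPM it stood at 25.7 against 444, a log2 ratio of 4.04 (3.16 to 5.26), and it was detected in 16.7% and 91.5% of thinned pDCs. The difference was not particular to pDCs, with log2 ratios of 2.56 in T cells and 2.53 in the other dendritic cell gates together.

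*Klrd1* (CD94, a lectin chain of NK receptors, chromosome 6, 129591782 to 129598775) behaved in another way. It had 23 UMIs in 13 of 45 pDCs of the WT-labelled library and 129 UMIs in 51 of 68 of the KO-labelled library, 65.7 and 269 CPM, a log2 ratio of 2.01 (1.39 to 2.74). The same ratio was 1.87 (1.45 to 2.36) in the other dendritic cell gates and 0.02 (−0.05 to 0.09) in T cells, so pDCs and the other dendritic cells differed by more than counting error and T cells did not. In thinned cells *Klrd1* was found in 23.8 and 69.5% of pDCs and in 61.3 and 62.1% of T cells. The NK cell markers *Ncr1*, *Klrb1c* and *Eomes* had 3, 2 and 0 UMIs in WT-labelled pDCs and 2, 1 and 0 in KO-labelled pDCs, while *Klrk1* had 6 and 19 UMIs (log2 ratio 1.13) and *Klre1* 3 and 6. The 6 NK markers summed to 42.8 and 60.5 CPM, and their part in the ratio of *Klrd1* was not tested.

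*Hmgn3*, a nucleosome-binding protein, was a further gene with a ratio in pDCs (1.19, 0.63 to 1.81) that other cells did not share (0.16), and in the other dendritic cell gates it was −0.97. *Hmgn3* was short of 2-fold in the wider gate of 6 other marker genes (0.78) and with every pDC thinned (0.96). Its level in pDCs was 94.2 and 217 CPM against 10.4 and 11.7 CPM in all other cells. *Zeb2* had 36 and 92 UMIs, a log2 ratio of 0.89 (0.33 to 1.50) against 0.04 in other cells. *Sh3bgrl3* (1.27), *Junb* (1.08), *Cd52* (1.05), *Rnaset2a* (0.95) and *Grcc10* (0.90) were higher in KO-labelled pDCs and, by less, in all other cells, from 0.24 to 0.84. In the wider gate of 6 other marker genes, *Junb* was at 0.28, *Cd52* at 0.56 and *Rnaset2a* at 0.36. *Junb* was at 0.99 without the pDC in which it was highest. *Apoe*, a lipid carrier of macrophages, had 24 and 87 UMIs in pDCs (log2 ratio 1.38) and was at 1.09 in other cells and at 0.84 in pDCs without members that held 5 or more UMIs over *Apoe*, *Lyz2* and the *C1q* genes, while the 8 macrophage markers summed to 745 and 719 CPM in pDCs. The part of other cell types in this ratio was not tested.

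Of the 10 largest ratios in the other direction, 6 moved by over 1.5 times without single pDCs. The WT-labelled cell described above held 206 of the 231 UMIs of *Spp1* in WT-labelled pDCs. Without the 5 mixed members the log2 ratio of *Spp1* went from −4.45 to −1.31. *Gzma* went from −4.42 to 0.34, *Ccl5* from −2.47 to −0.44, *Ccl4* from −1.93 to −0.71 and *Lgals3* from −1.36 to −0.53. *Wfdc17* went from −1.79 to −0.99 without the mixed members and to −0.20 without the 1 pDC that held 54 of its UMIs. Without the pDC in which each gene was highest, left out after the data were seen, 6 of the 7 higher genes and 7 of the 13 lower genes stayed past 2-fold. The chemokine list as a whole showed the same: 6 of its 8 measured genes were 2-fold lower in the KO-labelled library (3.97% of all genes), and without these members *Cxcl2* alone was, at −2.14 with 17 and 4 UMIs before they were left out.

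The other 4 of these 10 lower genes, *Lamp1*, *Jund*, *Gnas* and *Zfp36l2*, stayed past 2-fold without the mixed members. *Lamp1*, a protein of the lysosomal membrane, had 0 to 14 UMIs per pDC (median 2) in the WT-labelled library and 0 to 4 (median 0) in the KO-labelled library, 314 and 77.1 CPM, a log2 ratio of −2.01 (−2.60 to −1.48), with −0.99 in all other cells. *Jund*, a subunit of AP-1, was at −1.55 in pDCs and −1.60 in other cells, and *Gnas*, the stimulatory G protein of adenylyl cyclase, at −1.23 and −1.36, so both differed by a like amount in pDCs and in the other cells. *Zfp36l2*, which promotes the decay of mRNAs, was lower in pDCs (−1.23, −1.72 to −0.76) and at −0.03 in other cells. In the wider gate of 6 other marker genes *Zfp36l2* was at −0.60 and *Lamp1* at −1.36.

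**Figure D5:**
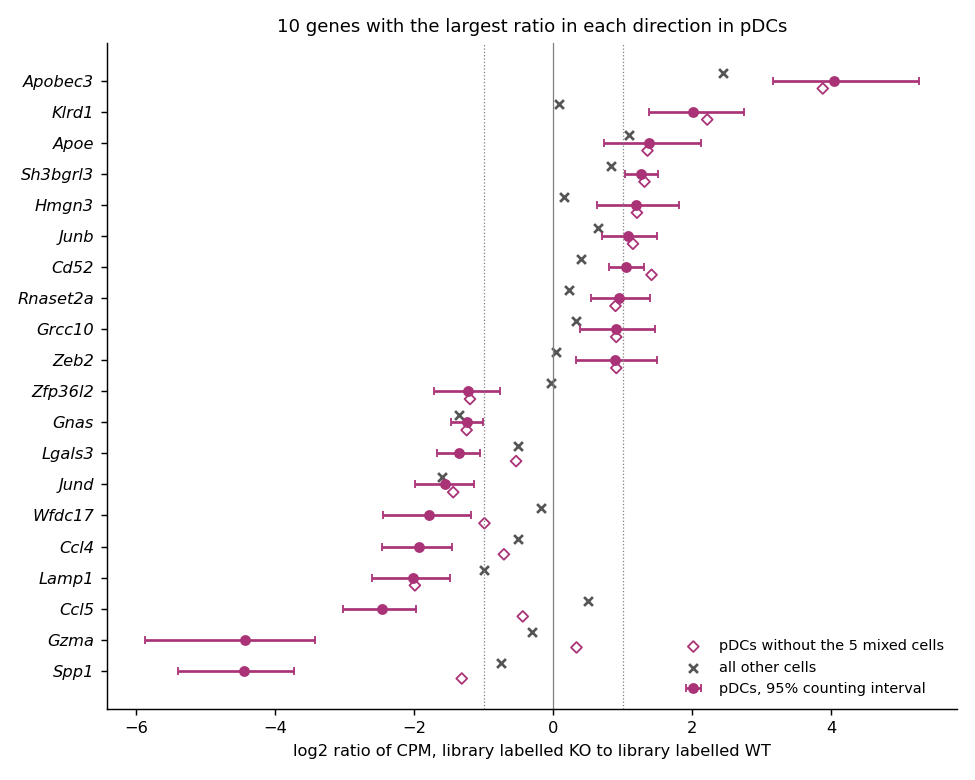
Log2 ratio of CPM (KO-labelled over WT-labelled pDCs) (x axis) for the 10 genes with the largest ratio in each direction in pDCs, as filled circles with 95% counting intervals, with open diamonds for pDCs without the 5 mixed members and crosses for all other cells. *Klrd1* and *Hmgn3* are far from the crosses at 0.09 and 0.16, and the ratio of *Gzma* moves from −4.42 to 0.34 without the mixed members.

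Summed lists could differ by less than 2-fold and still by more than counting error. The 34 secretory genes summed to 12379 CPM in the WT-labelled library and 10503 CPM in the KO-labelled library (log2 ratio −0.24, −0.30 to −0.18), with *Hspa5* at −0.76 (−1.03 to −0.50), *Sec61a1*, the pore of the translocation channel, at −0.91 and *Xbp1* at −0.54. In all other cells these genes were at −0.42, −0.07 and −0.04. The secretory sum was also lower under the KO label in cDC1 (9825 and 7285 CPM), Cd209a+ dendritic cells (7692 and 6449 CPM) and T cells (5781 and 4958 CPM). The 10 class I genes summed to 16067 and 13337 CPM (−0.27, −0.32 to −0.22), with *B2m* at −0.33. Their sum was lower under the KO label in cDC1 (10591 and 8348 CPM), Cd209a+ dendritic cells (12118 and 8803 CPM) and T cells (11589 and 11100 CPM) too. The class II genes had a log2 ratio of 0.07 (0.03 to 0.12) in pDCs. The interferon-stimulated genes were at −0.15 (−0.21 to −0.08) and the immediate early and heat shock genes at −0.29 (−0.40 to −0.18). Of 13 immediate early and heat shock genes, *Junb* and *Ier2* were 2-fold higher and *Jund*, *Ier3*, *Hspa1a* and *Hsp90aa1* lower (2.95% and 3.97% of all genes). Among WT-labelled pDCs, 1 cell held 41 of the 168 UMIs of *Hsp90aa1*. The log2 ratio of this gene, −1.12, was −0.74 (−1.13 to −0.36) without that cell, short of 2-fold.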

How the data were processed

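Leukocytes of 2 pooled tumor samples, 1 per genotype, were profiled by droplet 3' RNA sequencing. The submitters' processing notes name Cell Ranger and mm10. The authors deposited 1 table in which each value is the natural log of 1 plus the cell's UMIs scaled to a total of 10000, as Seurat makes it. The methods state a filter of at least 300 UMIs and 100 genes and at most 5% mitochondrial UMIs. The table held 17232 genes and 5022 cells, and its barcode suffix was matched to the library labels. UMIs were recovered by dividing each cell's unlogged values by its smallest nonzero one, and 100% of 11830623 nonzero values came out whole within 0.01. No depositor column of per-sample values was left unused, and the table held no comparisons by the authors.

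The pDC rule, the comparison gates and the gene lists were chosen with earlier results of these data known. Summed UMIs were compared as log2 ratios of CPM with 0.5 UMIs added, with exact 95% intervals (Poisson for levels, Clopper-Pearson for shares, conditional binomial for ratios), which cover counting error only. A gene at 0 was given the limit that 3 counts allow. Because 1 library per genotype leaves no replicate, no test was run and no p-value is given. List genes needed at least 20 UMIs in pDCs, and the leading genes and the comparison of libraries at least 100. Genes were named by 3 rules: the 20 leading genes, the 10 with the largest ratio between libraries in each direction whose interval leaves out 0, and 2 to 6 genes of each list by role. The muscle-type group and the limit of 20 UMIs for mixed members were set after values were seen. For shares of cells with a UMI and for the spread among cells, each cell was thinned to 5600 UMIs. Doublets were not removed and no caller was run. Promoters came from RefSeq (GRCm38.p6), which is the same assembly as mm10. Python 3.11.15, numpy 2.4.6, scipy 1.17.1 and matplotlib 3.10.9 were used. The ratios and intervals were tested on simulated counts with counting error only, which leaves out the spread among cells.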

Additional observations from a re-analysis of the deposited data

How the results depend on the processing

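With 1 library per genotype, every ratio between genotypes is a ratio between 2 libraries, and leaving out a replicate was not possible. No paired analysis was possible because the labels give 1 library per genotype and no replicate numbers. The pDC share was higher in the KO-labelled library under every alternative run. It was 3.22 and 3.88% when cells were chosen instead by at least 3 UMIs over *Klra17*, *Pacsin1*, *Cd300c*, *Cd209d*, *Upb1* and *Mctp2*. This wider gate held 45 of 45 and 66 of 68 of the pDCs, which were 58.4 and 64.7% of it. The share was 1.34 and 1.83% when the rule was applied after each cell was thinned to 2000 UMIs. The number of genes at least 2-fold lower in the KO-labelled library was 65 under the other-marker gate, 8 without the 5 mixed members (added after the data were seen) and 8 with every pDC thinned, against 13. The counts of higher and lower genes were 128 and 172 with at least 20 UMIs per gene, 17 and 42 with at least 50, and 4 and 6 with at least 200. *Lgals3* (0.22) and *Wfdc17* (0.13) changed sign under the other-marker gate and *Gzma* (0.34) without the mixed members. Beyond these, 62 summary values and 193 values of single genes moved by less than the limits set, and 25 values of single genes moved by more without a change of sign. Why a gate or filter moved a count was not tested, except that a lower minimum tests more genes of few UMIs.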
